A study of Homo sapiens with 12 samples.

Results

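The kallikreins of the prostate, KLK2, KLK3, KLK4 and KLK15, were followed through RNA-seq of LNCaP cells, a human prostate cancer line that grows in response to androgen. The rows were chosen by symbol, and these 4 genes were found among the 63677 Ensembl genes of each count table. The study compared a TALEN control line (Ctr) with a line in which TALENs, a pair of engineered nucleases, had removed the start codon of Bag-1L, the long protein form of BAG1 (Bag-1L KO); the KO cells were isolated as single clones. Both lines were LNCaP derivatives that had been through TALEN transfection or its vector control. Each line was sampled in 3 culture conditions with 2 biological replicates per group: full medium with complete serum (FM), vehicle (EtOH) for 16 h after 72 h in charcoal-treated serum, and 10 nM dihydrotestosterone (DHT, the potent natural androgen) for 16 h after the same starvation. FM samples therefore differ from the EtOH samples in the serum as well as in hormone, and a difference between the lines cannot be told apart from a difference between clones.

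Tissue kallikreins are secreted serine proteases that are made as inactive precursors. KLK3 is prostate-specific antigen, a chymotrypsin-like enzyme that cleaves the semenogelins and so liquefies the seminal clot. KLK2 and KLK4 are trypsin-like and can activate the KLK3 precursor, and KLK15 has been described as another activator of it. Androgens raise transcription of KLK2 and KLK3 through elements upstream of both genes, and this is why KLK3 serves as a readout of androgen signalling.

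Gene counts summed to between 20826843 and 30354666 per library. Replicates differed by a median of 0.076 to 0.127 (absolute log2) over genes in 4 groups, by 0.172 in Ctr DHT and by 0.238 in Ctr EtOH, so the comparisons that rest on the last 2 groups carry the most replicate error. BAG1 transcripts were lower in KO cells in EtOH (1147 ± 63 against 2202 ± 708 normalized counts, mean ± SD, n = 2) and in DHT (1095 ± 27 against 2415 ± 305), and the FM values were 1514 ± 88 against 2042 ± 106, a log2 difference of -0.43 that did not pass; the EtOH call was lost without Ctr EtOH replicate 2 (log2 -0.57). Gene counts do not separate the BAG1 isoforms. All 6 luminal marker genes averaged 100 or more normalized counts, all 3 basal markers (KRT5, KRT14, TP63) stayed below that level, and the leukocyte marker PTPRC had at most 1 count in any library. ENO2 among the neuroendocrine markers (177 counts on average) and COL1A1 among the stromal markers (669) were detected, whereas CHGA had at most 5 counts.

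The 4 genes occupied 86.1 kb of chromosome 19 (GRCh37, positions 51328545 to 51414651). In order along the chromosome these were KLK15 (ENSG00000174562, 51328545 to 51340469, minus strand), KLK3 (ENSG00000142515, 51358171 to 51364020, plus strand), KLK2 (ENSG00000167751, 51364824 to 51383823, plus strand) and KLK4 (ENSG00000167749, 51409607 to 51414651, minus strand). All are protein-coding, with 5 exons in the canonical transcript of KLK2 and KLK3 and 6 in that of KLK4 and KLK15. KLK2 and KLK3 are close paralogs, but only 11 of the 5074 stretches of 50 bases in KLK3 transcripts (0.217%) also occurred in KLK2. Of the 6861 stretches in KLK2, 31 (0.452%) also occurred in other genes, KLK3 among them, and KLK4 and KLK15 shared none. Only exact matches between annotated transcripts were counted, so reads lost or split through near matches cannot be judged from this.

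The promoters of KLK2 and KLK3 are shown because both genes responded most to hormone, and that of KLK4 because its response differed. Each line gives the 250 bases before a RefSeq start site (promoter table of GRCh38.p14, each sequence matched once to GRCh37), 5′ to 3′ on the strand of the gene. Capitals mark the androgen response element letters AGAACA, the relaxed form of the full element (GNACA, 4 bases of any kind, then GTNC) and the TATA box letters, which are read here from the opposite strand as TTTATA.
KLK3 (chr19:51357921-51358170, plus strand): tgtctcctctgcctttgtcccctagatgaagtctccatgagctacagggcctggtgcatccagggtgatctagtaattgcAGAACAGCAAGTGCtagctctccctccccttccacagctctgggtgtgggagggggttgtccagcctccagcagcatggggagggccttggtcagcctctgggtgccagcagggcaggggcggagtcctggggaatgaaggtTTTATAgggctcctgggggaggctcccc
KLK2 (chr19:51376445-51376694, plus strand): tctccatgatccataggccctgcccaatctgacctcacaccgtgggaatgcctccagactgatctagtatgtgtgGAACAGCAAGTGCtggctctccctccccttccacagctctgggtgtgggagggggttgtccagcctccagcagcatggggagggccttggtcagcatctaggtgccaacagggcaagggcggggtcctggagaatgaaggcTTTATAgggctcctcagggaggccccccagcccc
KLK4 (chr19:51414652-51414901, minus strand): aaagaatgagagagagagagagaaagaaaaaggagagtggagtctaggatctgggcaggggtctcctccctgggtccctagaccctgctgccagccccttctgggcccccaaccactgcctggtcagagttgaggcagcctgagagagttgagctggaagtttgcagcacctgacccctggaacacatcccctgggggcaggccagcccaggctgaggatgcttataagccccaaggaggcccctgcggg

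KLK3 and KLK2 held the same relaxed element, GAACAGCAAGTGC, which began 169 bases upstream of the start site in KLK3 and 175 bases upstream in KLK2. Over the 300-base windows of the table the 2 promoters were 80.2% identical, against 44.2 to 52.8% for the other pairs of kallikrein windows. AGAACA, which overlaps the relaxed element by all but its first letter, was present in KLK3 alone. Both strands of 35116 human promoter windows were searched, and 14.8% held AGAACA, 2.19% the relaxed element and 11.5% TATAAA. The strict element, in which GNACA is followed by 3 bases of any kind and TGTNC, was in none of the kallikrein windows and in 0.39% of all windows. Of the other windows, KLK15 had TATAAA 30 bases upstream of its second start site, and no motif was found at either KLK4 start site or at the first KLK15 start site. Sequence outside these windows was not searched, and the part of these motifs in the responses was not tested. The KLK2 start site used here lies inside the gene's annotated span, which opens further upstream with a longer transcript.

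KLK2, KLK3 and KLK4 were abundant in every group and KLK15 was weakly expressed (all 4 passed the minimum of 10 counts over the samples). On the scale of normalized counts per kb of exon, which allows genes to be set side by side, Ctr EtOH cells had 1342 ± 265 for KLK3, 1272 ± 188 for KLK4, 817 ± 160 for KLK2 and 14.0 ± 8.2 for KLK15 (mean ± SD, n = 2 here and for all groups). KLK3 and KLK4 did not differ there beyond their spread. In Ctr DHT cells KLK2 led with 3410 ± 100, followed by KLK3 with 2435 ± 144 and KLK4 with 1926 ± 411. In KO FM cells the order was KLK3 (4668 ± 466), KLK2 (4045 ± 251), KLK4 (1458 ± 18) and KLK15 (31.5 ± 5.3), and the ranges of the first 2 touched within their SDs. Length matters to this order: per kb of the canonical transcript, an alternative added after seeing the data, KLK3 (7717 ± 456) and KLK2 (7655 ± 223) could not be ranked in Ctr DHT cells, KLK3 (12410.5 ± 228) stood above KLK2 (9765 ± 11) in KO DHT cells, and in Ctr EtOH cells KLK3 (4251 ± 841) stood above KLK4 (1800 ± 266) and KLK2 (1833 ± 360). By normalized count, KLK2 moved from rank 822 of 26156 genes in Ctr EtOH to 136 in Ctr DHT and 78 in KO DHT, whereas KLK15 stayed between ranks 11295 and 13125.

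**Figure D1:**
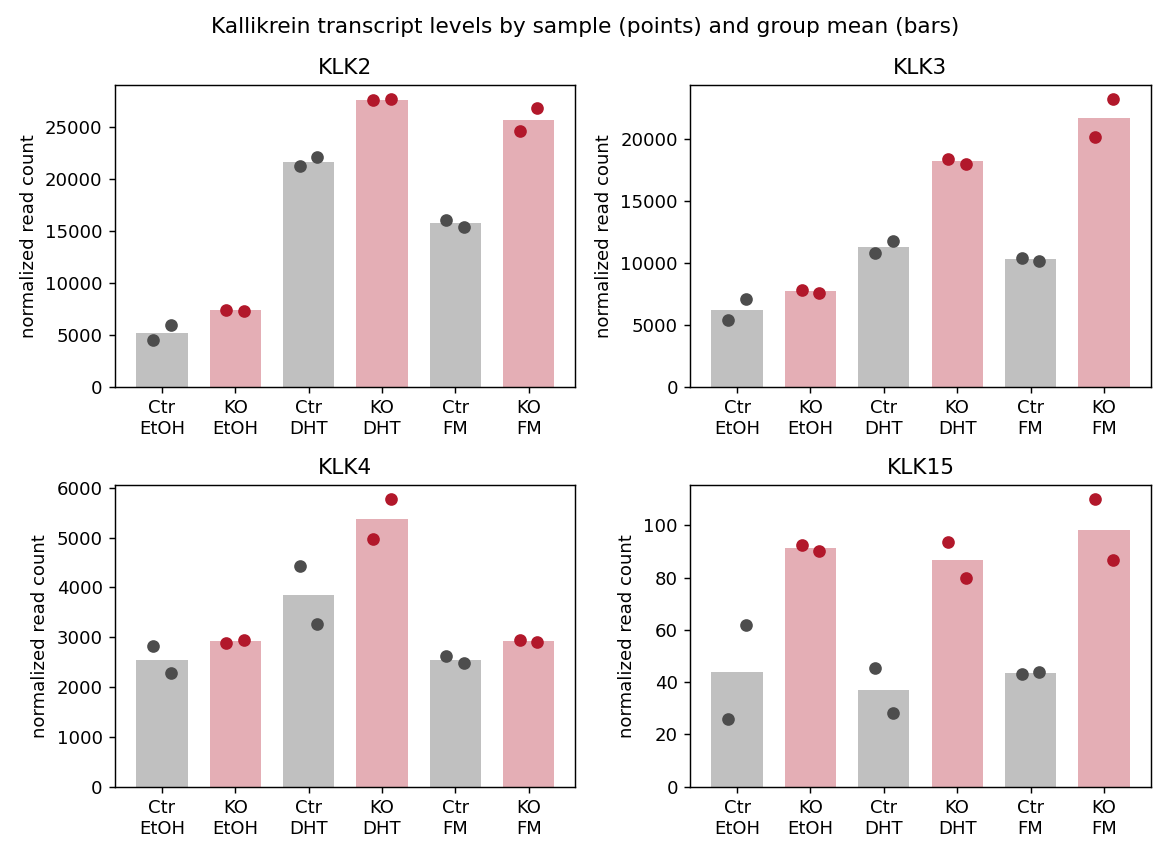
Normalized read count (y axis) of each kallikrein in the 6 groups (x axis), with points for the 2 replicates and bars for group means, grey for Ctr and red for KO. KLK2 lies at 4467 and 5907 in Ctr EtOH and at 21209 and 22103 in Ctr DHT, the DHT points of KLK4 lie above its EtOH and FM points in both lines, and every KO value of KLK15 (79.7 to 110.1) lies above every Ctr value (25.7 to 61.7).

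DHT raised KLK2, KLK3 and KLK4 in both lines, and KLK15 did not pass in either. KLK2 had 4467 and 5907 normalized counts in Ctr EtOH against 21209 and 22103 in Ctr DHT, and 7397 and 7306 in KO EtOH against 27602 and 27647 in KO DHT. Its groups were far apart, a log2 difference of 2.06 (SE 0.12) in Ctr and 1.91 (SE 0.12) in KO cells. KLK3 had 5354 and 7094 counts in Ctr EtOH against 10825 and 11769.7 in Ctr DHT. In KO cells the KLK3 counts were 7848 and 7546 without and 18405 and 17932.5 with DHT. The KLK3 groups did not overlap in either line, and the log2 differences were 0.86 (SE 0.13) and 1.24 (SE 0.13). Luminal markers moved with DHT too. KRT8 rose by 1.88 in Ctr and 1.36 in KO cells, KRT18 by 1.54 and 1.22 and TRPM8 by 1.05 and 2.26, while FOLH1 was lower (-1.29 and -0.78). The part of these markers in the kallikrein differences was not tested.

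KLK4 had the smallest response of the 3. It had 2816 and 2283 normalized counts in Ctr EtOH and 4441 and 3276 in Ctr DHT. In KO cells the values were 2885 and 2950.3 in EtOH and 4964 and 5776 in DHT. The groups did not overlap, with a 1.51-fold difference in Ctr cells (log2 0.60, SE 0.15, DESeq2 adjusted p = 0.000776) and a 1.84-fold difference in KO cells (log2 0.88, SE 0.15, DESeq2 adjusted p = 1.54e-07). The Ctr value sits just past the 1.5-fold minimum and fell below it with edgeR, with TMM size factors and with 10 counts required in every sample (0.58 in each). The call was also lost with only the groups compared (0.61, DESeq2 adjusted p = 0.0562) and without Ctr EtOH replicate 2 (0.45) or Ctr DHT replicate 1 (0.36). Thus 3 of 4 kallikreins rose with DHT in each line, where 6.04% of all genes tested rose in Ctr and 4.43% in KO cells. KLK15 differed by -0.24 (95% interval -0.99 to 0.51) in Ctr and -0.08 (-0.75 to 0.59) in KO cells, with 25.7 and 61.7 counts in Ctr EtOH against 45.4 and 28.2 in Ctr DHT, and its Ctr groups overlapped.

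In full medium, KLK2 and KLK3 were again above the EtOH level in both lines, whereas KLK4 was not. KLK2 had 16028 and 15391 normalized counts in Ctr FM and 24561 and 26813 in KO FM, which is 3.03-fold and 3.49-fold its EtOH level. KLK3 had 10398 and 10173 counts in Ctr FM and 20128 and 23182 in KO FM, or 1.65-fold and 2.81-fold its EtOH level (DESeq2 adjusted p = 4.86e-07 and 7.37e-28). The Ctr value of KLK3 fell below the fold minimum without Ctr EtOH replicate 1 (log2 0.54). KLK4 had 2622 and 2473.5 counts in Ctr FM and 2946 and 2896 in KO FM, level with its EtOH values, with log2 differences of 0.00 and 95% intervals of -0.30 to 0.29 in Ctr and -0.29 to 0.30 in KO cells. KLK15 differed by 0.00 (-0.74 to 0.74) and 0.11 (-0.56 to 0.78). The 2 of 4 kallikreins that rose stand against 9.81% of all genes tested in Ctr and 9.61% in KO cells. Markers of other cell types also differed between FM and EtOH. ENO2 was lower in FM by -1.73 in Ctr and -2.25 in KO cells, COL1A1 by -0.81 and -0.86, and SYP by -0.89 in Ctr cells, a call lost without any 1 of the 12 libraries. KRT14, with 9.6 counts on average, was higher by 2.35 and 3.77. Among luminal markers TRPM8 was higher in FM by 1.61 in Ctr and 2.83 in KO cells. In KO cells KRT8 (0.74) and KRT18 (0.84) were higher in FM and FOLH1 was lower (-0.86). The part of these markers in the kallikrein differences was not tested. The FM and DHT comparisons share their EtOH samples.

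Set directly against FM, DHT left KLK4 higher in both lines and no other kallikrein past the threshold. KLK4 was 1.51-fold higher in Ctr (DESeq2 adjusted p = 0.000475) and 1.84-fold higher in KO cells (DESeq2 adjusted p = 1.12e-07), the only call among the 4 genes in each line, where 10.6% and 6.8% of genes tested were higher. The Ctr difference was 0.37 without Ctr DHT replicate 1 and 0.56 without Ctr FM replicate 2, below the minimum in both. KLK2 was 1.38-fold higher with DHT in Ctr cells, below the fold minimum (DESeq2 adjusted p = 0.00115), and differed by 0.10 (-0.14 to 0.35) in KO cells. KLK3 differed by 0.14 (-0.12 to 0.39) in Ctr and -0.25 (-0.51 to 0.00) in KO cells. Beside KLK4, ENO2 was higher with DHT than in FM by 1.60 in Ctr and 1.98 in KO cells, COL1A1 by 1.22 and 0.92 and SYP by 1.49 in Ctr cells. Among luminal markers KRT8 was higher by 1.81 in Ctr and 0.62 in KO cells and KRT18 by 1.19 in Ctr cells. FOLH1 was lower in Ctr cells (-0.76). The KRT8 difference in KO cells was 0.52 without KO FM replicate 1 and 0.49 without KO DHT replicate 2. Of the genes around the 4 kallikreins that are not kallikreins, 7 were tested in this comparison. In Ctr cells 6 of these 7 were called higher with DHT, and in KO cells 0 of 7. Of the 6, those averaging 100 counts or more were CLEC11A (1.69), CTU1 (1.15) and C19orf48P (0.63). The C19orf48P difference was 0.56 without Ctr FM replicate 2, below the minimum. KLKP1, a kallikrein pseudogene, differed by 0.63 in Ctr cells and did not pass (DESeq2 adjusted p = 0.0691). The part of these markers and neighbours was not tested.

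**Figure D2:**
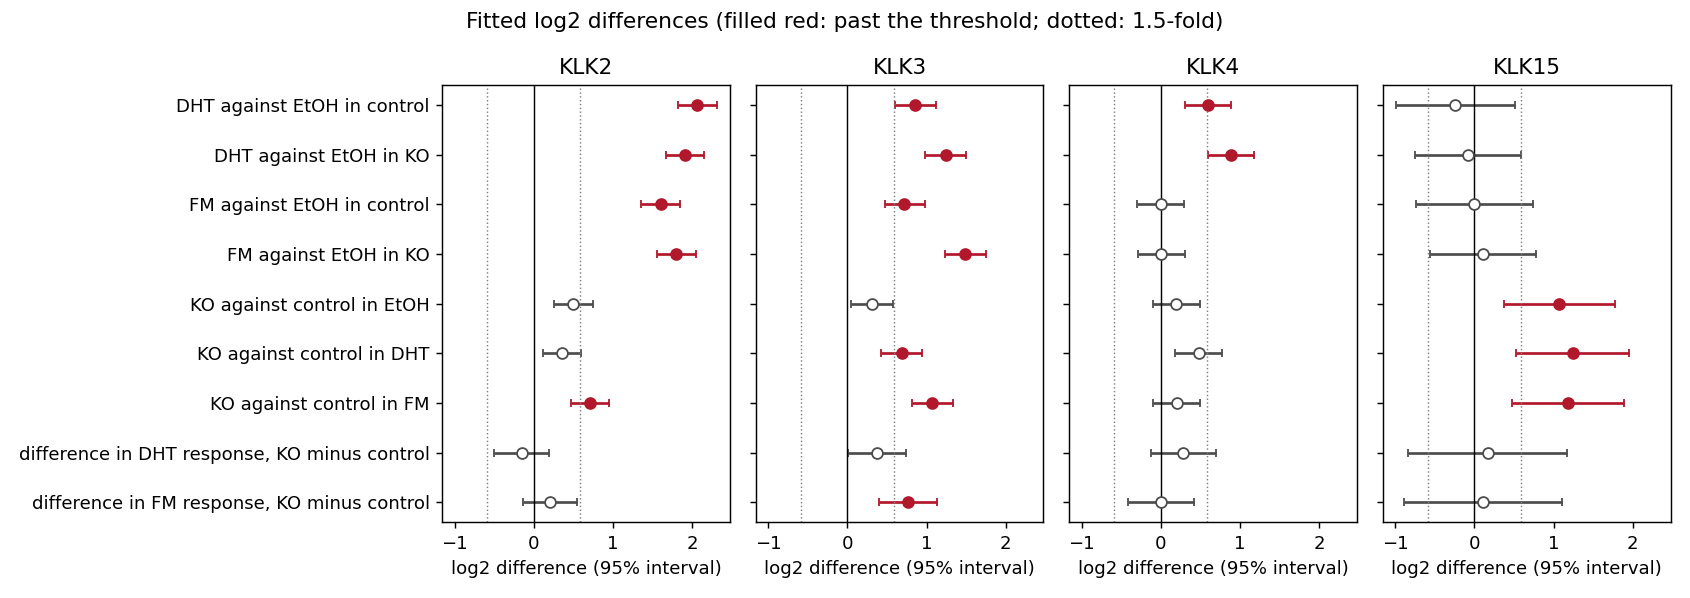
Log2 differences (x axis) with 95% intervals for the 4 kallikreins in 9 comparisons (rows), filled red where the adjusted p was at most 0.05 and the fold at least 1.5. KLK2 lies at 2.06 and 1.91 with DHT, KLK4 lies at 0.60 and 0.88 with DHT but at 0.00 with FM, and KLK15 is past the threshold in the 3 comparisons of KO with Ctr cells and in no other.

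Kallikrein counts were higher in Bag-1L KO cells: the KO mean exceeded the Ctr mean for all 4 genes in all 3 conditions, although several of these differences did not pass. The median log2 difference of all genes tested was -0.015 in EtOH, -0.018 in DHT and -0.014 in FM. How many of all genes had such an order of means, or no overlap between the lines, was not counted. In these bulk libraries more transcript per cell and a larger share of expressing cells cannot be told apart. In EtOH, 1 of 4 kallikreins was called higher in KO cells (2.8% of all genes tested were). In DHT it was 2 of 4 (4.66% of genes tested), and with FM 3 of 4 (5.41%). KLK3 was 2.11-fold higher in KO cells in FM (log2 1.07, SE 0.13, DESeq2 adjusted p = 8.2e-14), 1.61-fold in DHT (DESeq2 adjusted p = 6.85e-06) and 1.24-fold in EtOH, where it did not pass (DESeq2 adjusted p = 0.139). Its Ctr and KO values did not overlap in any condition. KLK2 was called in FM at 1.64-fold (DESeq2 adjusted p = 8.2e-07), while its 1.42-fold difference in EtOH and 1.28-fold difference in DHT had adjusted p-values of 0.00147 and 0.0329 (DESeq2) but were smaller than the fold minimum. KLK4 differed by 0.19 (-0.10 to 0.49) in EtOH, 0.48 (0.18 to 0.77) in DHT and 0.20 (-0.10 to 0.49) in FM, none past the threshold. Of the 3 neuroendocrine markers ENO2 was also higher in KO cells in EtOH (1.16, SE 0.19) and DHT (1.02, SE 0.19) and SYP in FM (1.06, SE 0.36), while CHGA stayed at 0 to 5 counts. The SYP call was lost in 6 of the 12 fits that left out a library. Of the luminal markers, STEAP2 was higher in KO cells in EtOH (0.99) and DHT (0.83), TRPM8 in DHT (1.18) and FM (1.19) and FOLH1 in DHT (1.04), while the keratins KRT8 (-0.78) and KRT18 (-0.73) were lower in DHT. The part of these markers in the kallikrein differences was not tested.

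KLK15, the least abundant member, was higher in KO cells in every condition. It had 25.7 and 61.7 normalized counts in Ctr EtOH against 92.7 and 90.3 in KO EtOH. In DHT the values were 45.4 and 28.2 against 93.6 and 79.7, and in FM 43.1 and 43.8 against 110.1 and 86.6. No Ctr library reached the lowest KO library, though how many of all genes separate the lines in this way was not counted. KO cells exceeded Ctr cells 2.10-fold in EtOH (DESeq2 adjusted p = 0.0337), 2.36-fold in DHT (adjusted p = 0.00778) and 2.27-fold in FM (adjusted p = 0.0104). These calls rest on few reads: the EtOH call was lost when any of 9 of the 12 libraries was left out (log2 0.57 without Ctr EtOH replicate 1 and 1.83 without Ctr EtOH replicate 2). The FM call was lost without each of the 4 FM libraries, and the DHT call without Ctr DHT replicate 2 or KO DHT replicate 1. Neither DHT nor FM moved KLK15 past the threshold in either line.

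The difference in response between the lines was tested directly. For DHT no kallikrein passed with DESeq2 or edgeR, where 0.408% of all genes tested passed with DESeq2 in either direction. Before adjustment, 1 of the 4, KLK3, had an unadjusted p under 0.05. This is a looser limit than the call, and how many of all genes met it was not counted. The intervals of the difference in log2 response (KO minus Ctr) were -0.50 to 0.19 for KLK2, 0.01 to 0.74 for KLK3, -0.13 to 0.70 for KLK4 and -0.84 to 1.17 for KLK15. For FM, 1 of 4 passed (0.748% of genes tested were higher): KLK3 had a response 0.77 larger in KO cells (SE 0.19, DESeq2 adjusted p = 0.00648). That call did not hold with edgeR (adjusted p = 0.0594), and it was lost when 6 of the 12 libraries were left out in turn, where the difference ranged from 0.55 (without Ctr EtOH replicate 2) to 0.96 (without Ctr EtOH replicate 1). KLK2 (0.21, -0.14 to 0.55) and KLK4 (0.00, -0.42 to 0.42) did not pass.

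**Figure D3:**
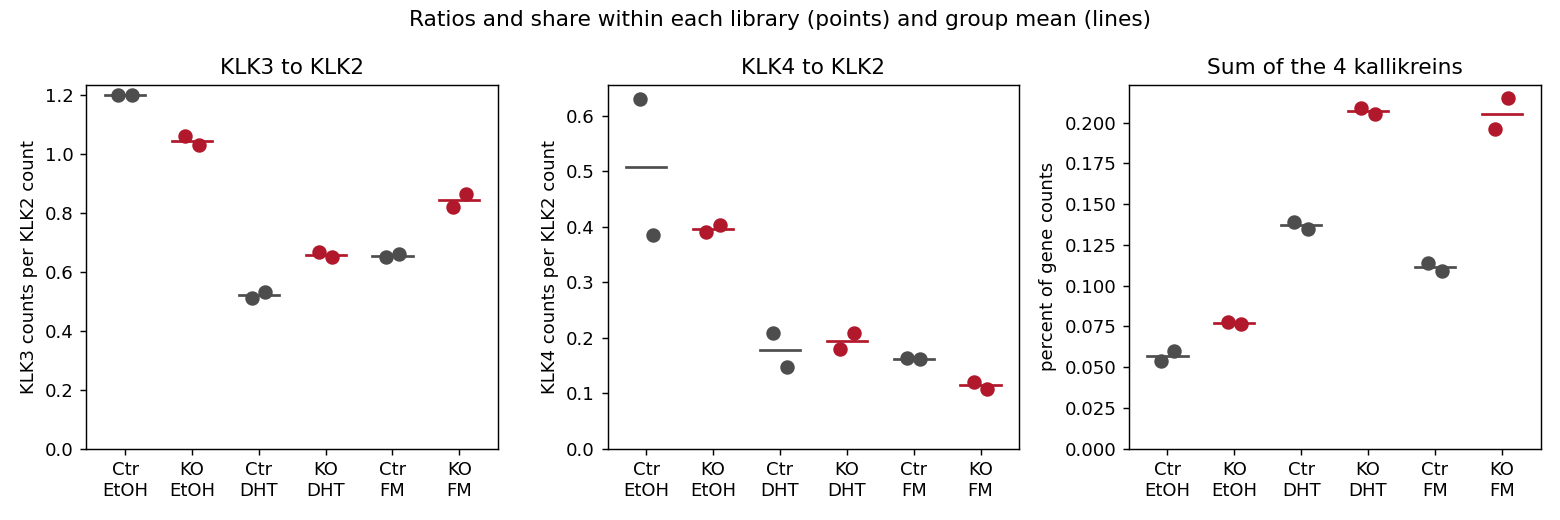
KLK3 to KLK2 and KLK4 to KLK2 count ratios within each library, and the summed percent of gene counts taken by the 4 kallikreins (y axes), by group (x axis), with points for libraries and lines for group means, grey for Ctr and red for KO. The KLK3 to KLK2 ratio is highest in Ctr EtOH (1.20 in both libraries) and lowest in Ctr DHT (0.51 and 0.532).

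The balance between KLK3 and KLK2 shifted with treatment, and this ratio within a library needs no scaling between libraries. There were 1.20 and 1.20 KLK3 counts per KLK2 count in Ctr EtOH, 0.51 and 0.532 in Ctr DHT and 0.649 and 0.661 in Ctr FM. In KO cells the ratios were 1.06 and 1.03 in EtOH, 0.667 and 0.649 in DHT and 0.82 and 0.865 in FM. The lines therefore did not overlap in any condition, but the KO ratio was lower in EtOH (log2 -0.20) and higher in DHT (0.34) and FM (0.36). Averaged over conditions the difference between the lines did not pass (log2 0.17, exact permutation p = 0.12, adjusted 0.181 over the 3 values tested, two-sided). Opposite signs partly cancel in this average, so it does not show that the lines were alike. The average difference in the KLK4 to KLK2 ratio also did not pass (-0.23, exact permutation p = 0.185, adjusted 0.185). This ratio separated the lines only in FM, with 0.164 and 0.161 in Ctr against 0.12 and 0.108 in KO cells. Together the 4 kallikreins took 0.0536 and 0.0601% of gene counts in Ctr EtOH, 0.139 and 0.135% in Ctr DHT and 0.114 and 0.109% in Ctr FM. In KO cells the share was 0.0774 and 0.0762%, 0.209 and 0.205%, and 0.196 and 0.215%. The KO share was higher in each condition (mean log2 0.64, exact permutation p = 0.00926, the smallest that the permutations can give, adjusted 0.0278).

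The abundance of KLK2, KLK3 and KLK4 was not shared by the rest of the kallikrein locus. Of the 12 other tissue kallikreins, 7 passed the count filter, and none averaged 100 normalized counts. Only 3 of them, and in 4 of the 11 comparisons only KLKP1, had counts enough for an adjusted p, and none of those tested was called. The pseudogene KLKP1 came closest, with 52 to 165 counts per library and a mean of 98.9 normalized counts; its group means ran from 69.6 in Ctr FM to 133.8 in KO DHT. KLK1, which lies beside KLK15 and is best known from kidney and pancreas, had 4 to 21 counts, KLK14 had 4 to 18, and KLK9 had none in any library, which allows at most 0.144 CPM, counts scaled to a common library total, in the shallowest library. Between 300 kb before and 300 kb after the 4 genes there were 37 genes other than kallikreins, of which 16 had no counts and 3 averaged 100 or more. Of these 3, C19orf48P averaged 11285 normalized counts and rose with DHT by 0.73 (SE 0.14) in Ctr (0.53 and no longer called without Ctr EtOH replicate 1) and 0.99 (SE 0.14) in KO cells, but its KO mean was below its Ctr mean (6849.5 against 9925.5 in EtOH and 13589 against 16465 in DHT). CLEC11A (241 counts on average) and CTU1 (111) were lower in FM than in EtOH in Ctr cells, with log2 differences of -1.40 and -1.04. Without Ctr EtOH replicate 2 these were -0.71 and -0.68, and the CTU1 call was lost there and without Ctr FM replicate 2 (-0.83). Neither passed with DHT against EtOH, and CLEC11A was higher in KO than in Ctr cells in FM (1.40, SE 0.31).

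**Figure D4:**
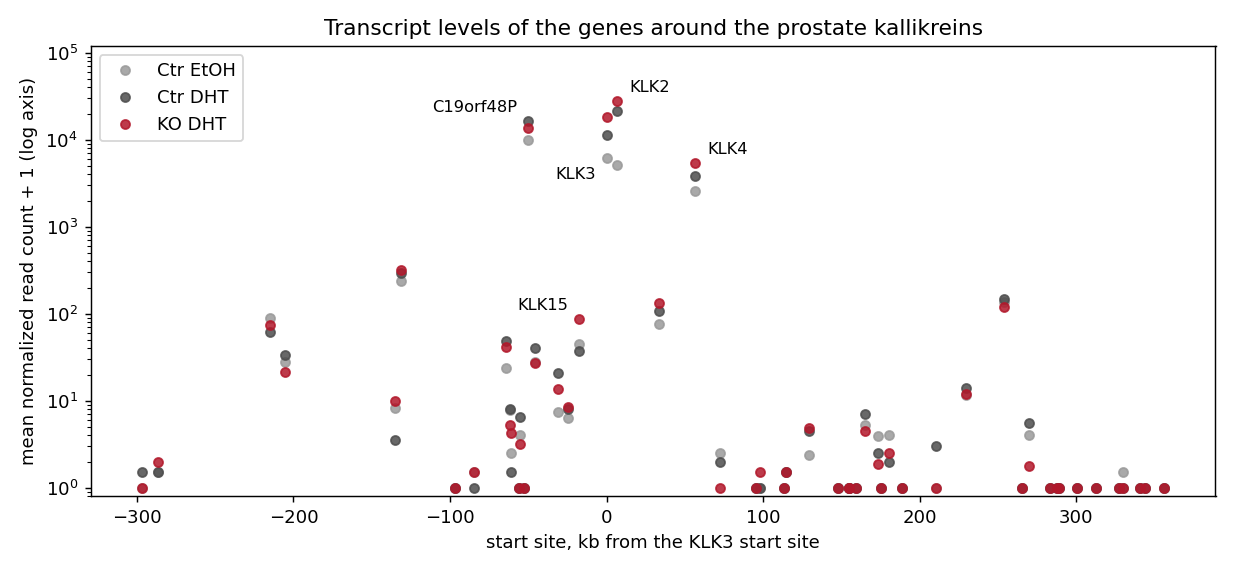
Mean normalized read count plus 1 (log axis) of every annotated gene around the kallikreins against the distance of its start site from that of KLK3 in kb, for Ctr EtOH (light grey), Ctr DHT (dark grey) and KO DHT (red). KLK2, KLK3, KLK4 and C19orf48P have means of 2549 or more, and no other gene has a mean over 319.

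Among 16 substrates, receptors, activators and seminal partners of the kallikreins, 13 passed the count filter and 9 averaged 100 or more. The clot proteins cleaved by KLK3, SEMG1 and SEMG2, had at most 3 and 4 counts in a library, and MSMB had none. In DHT against EtOH 3 of 11 tested rose and 1 fell in each line, where 5.37% of all genes tested fell in Ctr and 3.24% in KO cells. IGFBP3, a growth factor binding protein that KLK3 can cleave, rose by 0.77 (SE 0.14) in Ctr and 0.72 (SE 0.14) in KO cells, where the call was lost without KO EtOH replicate 2 (0.57). TMPRSS2, an androgen-regulated membrane protease, rose by 1.32 (SE 0.12) and 2.70 (SE 0.12). ACP3, prostatic acid phosphatase (the older ACPP), fell by 1.93 on the log2 scale in Ctr and by 1.45 in KO cells. F2RL1, the protease-activated receptor that KLK4 can cleave, rose in Ctr cells (0.86, SE 0.11), and its response was smaller in KO cells (difference -0.62, DESeq2 adjusted p = 0.0153). That difference was no longer called with edgeR, with only the groups compared or in 10 of the 12 fits that left out a library. AZGP1, a seminal glycoprotein, passed in KO cells (1.58, SE 0.33), and its difference in response did not pass.

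In FM against EtOH, 5 of 11 tested rose and 5 fell in Ctr cells, and 4 of 11 rose and 4 fell in KO cells, against 11.5% of all genes tested falling in Ctr and 9.68% in KO cells (those rising are given above). The median over the list was -0.31 in Ctr and 0.15 in KO cells. Among those that fell in both lines were ACP3 (-1.56 in Ctr and -2.35 in KO cells), FN1 (fibronectin), HPN (hepsin, a membrane protease) and IGFBP5, a relative of IGFBP3. IGFBP3, which rose with DHT, was called lower in FM in Ctr cells (-0.85, SE 0.15). AZGP1, F2RL1 and TMPRSS2 were among those that rose in both lines. The FN1 call in Ctr cells was lost without Ctr EtOH replicate 1 (-0.34) and the HPN call in KO cells without KO FM replicate 1 (-0.54). In KO against Ctr cells 1 of 11 tested was higher and 2 lower in EtOH, 3 of 10 higher and 3 lower in DHT, and 1 of 9 higher and 1 lower in FM, where 2.31, 3.32 and 2.6% of all genes tested were lower. ACP3 was higher in KO cells in EtOH and DHT by 1.35 (SE 0.14) and 1.83 (SE 0.15), and TMPRSS2 in DHT and FM by 0.81 and 0.83 (SE 0.11 each). FN1 was higher in DHT by 0.92 (SE 0.21), but 0.69 and not called without Ctr DHT replicate 2. IGFBP3 was lower in EtOH and DHT by -0.77 (SE 0.14) and -0.82 (SE 0.14), and F2RL1 in DHT and FM by -1.12 and -0.93. AZGP1 was lower in EtOH by -1.93 (SE 0.33) and in DHT by -0.77 (SE 0.25). The AZGP1 call in DHT was lost in 6 of the 12 fits that left out a library.

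Of 12 kallikrein inhibitors 11 passed the filter and 4 averaged 100 or more. SERPINA3 (antichymotrypsin), the main binding partner of KLK3 in blood, had at most 4 counts in any library. SERPINB6, an intracellular serpin known to bind KLK2, was lower in KO cells in every condition, by -1.14 in EtOH, -1.18 in DHT and -0.95 in FM (SE 0.15 each, DESeq2 adjusted p = 1.73e-12, 1.35e-13 and 1.07e-08). With DHT against EtOH no inhibitor that averaged 100 counts passed in either line. SPINT2, an inhibitor of membrane serine proteases, was lower in FM than in EtOH in Ctr cells (-0.61, SE 0.14), a call lost without Ctr EtOH replicate 2 (-0.37).

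SPDEF, GATA2, FOXA1 and HOXB13, transcription factors known to act at KLK3, were all abundant, and with DHT they did not move as a group. SPDEF, an epithelial ETS factor, rose by 2.06 (SE 0.15) in Ctr and 2.14 (SE 0.15) in KO cells. GATA2 fell by 0.60 on the log2 scale in Ctr cells (DESeq2 adjusted p = 1.12e-05; -0.43 without Ctr EtOH replicate 2 and -0.56 without Ctr DHT replicate 1, neither called), while its difference in KO cells was -0.44 and smaller than the fold minimum. FOXA1 and HOXB13 reached the threshold in no comparison. None of the 4 was called between KO and Ctr cells in any condition. HOXB13 was higher in KO cells in DHT by 0.47 (DESeq2 adjusted p = 0.000513) and SPDEF in FM by 0.46 (DESeq2 adjusted p = 0.0218). Both differences were smaller than the fold minimum. The part of these genes in the kallikrein differences was not tested.

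Across the 12 libraries, the log2 counts of KLK2 and KLK3 correlated at r = 0.921 (Pearson), whereas KLK4 correlated at 0.581 with KLK2 and 0.486 with KLK3. These values are descriptions, since the libraries share lines and conditions. Of 11228 genes averaging 100 counts or more, those most like KLK2 were RHOBTB2 (r = 0.981), TBRG1 (0.981) and TMEM79 (0.980). For KLK3 they were PLOD3 (0.971), HK1 (0.965) and PEX10 (0.965). The genes most like KLK4 were TRIM62 (0.979), LRRC41 (0.979) and BRPF3 (0.970). All of these were picked as the highest values among 11228 genes, so they do not show how near the kallikreins were to each other. Where the other kallikreins rank among those genes was not counted. KLK15 averaged fewer counts and was not compared.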

How the data were processed

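RNA-seq of 12 LNCaP samples was analysed. The authors prepared stranded poly(A) libraries (TruSeq), sequenced them on an Illumina HiSeq, mapped reads to GRCh37 with TopHat2 2.0.11 and obtained counts for Ensembl genes with HTSeq 0.5.3p3 (CASAVA 1.7, versions from the submitters' processing notes), and deposited raw counts per gene. The strand setting and the Ensembl release are not given in the sources used here. HTSeq drops reads that map to several places (15.91 to 19.97% of reads here) or overlap several genes, and its 5 tallies were left out. Symbols and positions come from GENCODE v44 lifted to GRCh37.

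The members and gene lists were chosen with earlier results of these data known. Genes with 10 or more counts in total (26156) entered one DESeq2 1.42.0 fit (R 4.3.3) with a coefficient for each of the 6 groups, Wald tests and Benjamini-Hochberg adjustment over all genes tested; a call needed adjusted p at most 0.05 and a fold of at least 1.5, the study's threshold. Intervals are 95%. Counts were normalized by DESeq2 size factors, and the median log2 difference of all genes lay within 0.02 of 0 in each comparison. Ratios within libraries were compared by an exact permutation of line labels within conditions. Genes of the substrate, inhibitor, regulator and neighbour lists are named from those that passed a comparison and averaged 100 counts or more; cell type markers are given beside the results they moved with; correlations used log2(normalized count + 1). Alternatives were edgeR 4.0.16 (quasi-likelihood, TMM), TMM size factors in DESeq2, no filter, 10 counts in every sample, only the groups compared, a replicate block, no fold minimum, thinning to 20826843 counts and leaving out each library. Both tools were tested on simulated data. At library totals of 20826843 to 30354666 counts, 3 counts correspond to 0.0988 to 0.144 CPM. Protein sequences were not used here, and the result of 1 further listed regulator is not reported here.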

Additional observations from a re-analysis of the deposited data

Results flagged for a closer look

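A difference between the lines in the response to a treatment was found by the test of the difference itself (DESeq2, KO minus Ctr) for 1 kallikrein, 5 genes of the substrate and regulator lists and 2 luminal markers. Over all genes tested, 180 of 12971 passed for FM and 55 of 13478 (0.408%) for DHT, in either direction. For FM against EtOH, KLK3 had a response 0.77 larger in KO cells (SE 0.19, adjusted p = 0.00648). ACP3 differed by -0.79 (SE 0.21, adjusted p = 0.0185), AZGP1 by 1.38 (SE 0.39, adjusted p = 0.0354), TMPRSS2 by 1.41 (SE 0.17, adjusted p = 1.34e-13) and SPDEF by 0.81 (SE 0.22, adjusted p = 0.0213). For DHT against EtOH, TMPRSS2 differed by 1.39 (SE 0.17, adjusted p = 4e-13) and F2RL1 by -0.62 (SE 0.15, adjusted p = 0.0153). Among the luminal markers, TRPM8 differed by 1.21 (SE 0.19, adjusted p = 2.64e-07) for DHT and 1.22 (SE 0.18, adjusted p = 3.64e-08) for FM, and STEAP2 by -0.73 (SE 0.21, adjusted p = 0.0408) for FM. With edgeR the differences of KLK3, ACP3, AZGP1, SPDEF, F2RL1 and STEAP2 did not pass. Of the 12 fits that each left out a library, the call was lost in 6 for KLK3, 6 for ACP3, 9 for AZGP1, 7 for SPDEF, 10 for F2RL1 and 7 for STEAP2, and in none for TMPRSS2 or TRPM8.

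The KLK3 to KLK2 count ratio was lower in both KO libraries than in both Ctr libraries in EtOH (log2 -0.20) and higher in both in DHT (0.34) and in FM (0.36). Whether this difference between the conditions exceeds the replicate error was not tested. No group has 4 samples, so single libraries could not be screened as outliers within their group.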

How the results depend on the processing

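The 44 kallikrein results were recomputed under 20 alternatives each. Of the 880 values, 828 kept their side of the threshold and, where the main value did not round to 0.00, their direction. In DHT against EtOH in Ctr cells 2 kallikreins in place of 3 were called with edgeR, TMM size factors, 10 counts in every sample or only the groups compared, as KLK4 was lost. In KO against Ctr EtOH the number of kallikreins called was 0 with only the groups compared, 0 after thinning and 2 with no fold minimum. With no fold minimum 4 were called in KO against Ctr DHT and 2 in DHT against FM in Ctr cells, and with edgeR 0 differed in the FM response. Leaving out single libraries gave 0 to 2 calls in KO against Ctr EtOH, 1 to 3 in DHT and 2 to 3 in FM, 1 to 2 in FM against EtOH in Ctr cells, and 0 to 1 for the FM response difference and for DHT against FM in Ctr cells. Thinning turned KLK15 to 0.05 in DHT against EtOH in KO cells and to -0.01 in the FM response difference. Direction also turned in some fits without a library for KLK15, with ranges of -0.74 to 0.52 (DHT against EtOH in Ctr), -0.20 to 0.03 (in KO), -0.59 to 0.67 (DHT response difference), -0.08 to 0.27 (FM against EtOH in KO), -0.65 to 0.61 (FM response difference) and -0.62 to 0.06 (DHT against FM in Ctr), and for KLK2 in the response differences (-0.37 to 0.04 for DHT, -0.01 to 0.39 for FM). Where the main value was 0.00, fits without a library also gave both signs. In FM against EtOH in Ctr cells they ran from -0.5 to 0.76 for KLK15 and from -0.14 to 0.16 for KLK4. KLK4 ran from -0.01 to 0.02 in KO cells and from -0.16 to 0.15 in the FM response difference. None of these was past the threshold, and the cause was not tested.

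Within conditions, the KLK3 to KLK2 ratio gave -0.20 (EtOH), 0.34 (DHT) and 0.36 (FM) against 0.17 pooled, the KLK4 to KLK2 ratio 0.14 (DHT) and -0.51 (FM) against -0.23, and the summed share 0.44 (EtOH) and 0.88 (FM) against 0.64. Replicate numbers were shared by the groups, and the correlation of their deviations ran from -0.415 to 0.692 over 15 pairs of groups, with 6 over 0.1, all among Ctr EtOH, Ctr DHT, KO DHT and KO FM. Since not every pair exceeded 0.1, the number was not taken as a pairing. The replicate block changed no kallikrein call, and with it calls over all genes for the FM response difference rose from 180 to 281. For the summed share the block gave an exact permutation p of 0.0312, unadjusted and the smallest that sign changes within the pairs can give. The KLK3 to KLK2 and KLK4 to KLK2 ratios gave 0.25 each. No adjustment over the 3 values was made here, so whether the share passes with the block is not shown.

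Over all genes, calls in the DHT response difference moved from 55 to 24 with edgeR and to 19 with only the groups compared, and in the FM response difference from 180 to 65 with edgeR. KO against Ctr EtOH moved from 844 to 531 with only the groups compared and to 1620 with no fold minimum, and without single libraries the FM response difference gave 49 to 2124. The 117 results for list genes and markers kept direction in all 2338 values, and 109 values fell short of the threshold. The limits are 2 replicates a group, 1 line of each genotype, and for KLK15 a depth of under 120 counts per library.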
